A study of Mus musculus with 26 samples.

Results

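Isl1 binding was mapped by CUT&RUN in mouse TrkC sensory neurons at E11.5, and the regions described here are all peaks of the Isl1 consensus list: 16035 of the 159182 regions held by the 5 deposited lists. Each peak was given to the protein-coding gene whose transcription start site (TSS) lay nearest to the peak midpoint. The neurons carried a BAC transgene that copies part of chromosome 4 around *Runx3*, so the 119 peaks inside chr4:134954652-135174651 were set apart, and 15916 peaks outside it are the basis of every value below unless the transgene is named. No measured value chose the peaks beyond the peak call itself.

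The other lists hold 32822 Brn3a peaks, 13443 Runx3 peaks, 32655 H3K27Ac peaks and 64227 ATAC peaks (open chromatin) of the same cell type and age. Per the labels, the samples came from BacE-GFP embryos, and the study's mice were on the Cb6F1 background. EGFP was fused to *Runx3* on the BAC and marks TrkC neurons. Dorsal root ganglia (DRG) of several embryos, mainly cervical, were pooled for each sample, dissociated with trypsin and collagenase and sorted for GFP. The study's methods add that some experiments instead took TrkC neurons of GFP-positive or wild-type mice by magnetic separation, without saying which samples; the serum control of the Isl1 samples is named as a sorted one. The 3 Isl1 samples used 300000 to 600000 cells each, per the labels, with a smaller number in the methods, and an anti-Islet1 antibody at 1 in 50. The other groups were 2 Brn3a, 8 Runx3, 5 H3K27Ac, 3 ATAC and 5 non-immune rabbit serum (NRS) samples, 26 in all. All embryos were normal for Isl1, so binding without Isl1 was not measured.

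The Isl1 list keeps regions found in at least 2 of the 3 samples and gives a position and a motif mark for each, with no height, count or per-sample value. Sequencing depth is therefore unknown here, peaks cannot be ranked by strength, and the 3 samples cannot be compared. Peaks are the units of every test, so each p-value speaks of the lists alone, embryo-to-embryo spread being unmeasured, and intervals cover counting error only.

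Isl1 is a LIM-homeodomain transcription factor: its homeodomain reads DNA built around the letters TAAT, and its LIM domains bind the adaptor Ldb1, which joins it to other factors. In the DRG it is made by nearly all newborn sensory neurons, where it acts together with the POU factor Brn3a (encoded by *Pou4f1*) to close the early neuronal programme and open that of sensory subtypes. TrkC neurons, which include the proprioceptors that sense muscle stretch, also need Runx3.

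8 sites show what the bound DNA looks like at genes that matter for these neurons. For each gene the window comes from the peak nearest to the TSS among its peaks that hold either spelling of the motif. For *Nova1*, *Pou4f1*, *Tle3* and *Isl1* another peak, without such a site, lies nearer to the TSS. The site is shown with 25 bases on either side (11 where it lies in an untranslated region). Windows are read 5′ to 3′ on the strand that carries the motif. Capitals mark the motif, CTAATGG or CTAATTG, the spellings of an Isl1 site searched for. The *Scn10a* window is at chr9:119719273-119719301 (minus strand), just inside the start of the gene in its 5′ untranslated region, and that of *Cckar* is at chr5:53707965-53708021 (minus strand), before the gene in its promoter. The *Klf7* window is at chr1:64121620-64121676 (minus strand), in the promoter and within the gene. The *Nova1* window is in an intron at chr12:46722589-46722645 (minus strand), the *Ntrk3* window in an intron at chr7:78653961-78654017 (plus strand), and the *Pou4f1* window at chr14:104427808-104427864 (plus strand), in an intron of the lincRNA *D130079A08Rik* downstream of the gene. The *Tle3* window is at chr9:61370770-61370826 (plus strand), in a peak 1.74 kb before the TSS, where it overlaps the lincRNA *Gm10655*. The *Isl1* window is intergenic at chr13:116495803-116495859 (minus strand). All coordinates are mm10 (GRCm38).
Scn10a: cgaatcattatCTAATTGcagccttttct
Cckar: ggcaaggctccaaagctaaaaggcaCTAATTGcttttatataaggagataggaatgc
Klf7: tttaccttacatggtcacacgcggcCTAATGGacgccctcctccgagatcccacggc
Nova1: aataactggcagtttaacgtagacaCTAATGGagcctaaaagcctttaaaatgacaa
Ntrk3: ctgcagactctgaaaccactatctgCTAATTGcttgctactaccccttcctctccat
Pou4f1: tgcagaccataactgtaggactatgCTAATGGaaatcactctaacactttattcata
Tle3: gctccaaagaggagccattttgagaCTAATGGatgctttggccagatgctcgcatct
Isl1: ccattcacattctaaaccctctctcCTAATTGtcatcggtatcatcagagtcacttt

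The Isl1 peaks held such sites far more often than the DNA beside them. Each peak was compared with an interval of its own width 2 kb upstream, on both strands, with an exact McNemar test adjusted over the 9 motifs searched (Benjamini-Hochberg). CTAATGG lay in 13.9% of peaks and 2.15% of paired intervals: 2157 pairs had it only in the peak and 284 only in the interval, and the p was too small to be represented. CTAATTG lay in 7.43% and 2.26% (exact adjusted p = 7.5e-108). TAAT itself, which the longer spellings contain, was in 85.8% of peaks and 70.5% of intervals (exact adjusted p = 1.3e-273).

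Other homeodomain spellings were also more frequent in peaks, but by smaller ratios than CTAATGG (7.60 times as many peak-only as interval-only pairs). The spelling TAATTG was found in 23.0% against 9.82% (exact adjusted p = 1.8e-230) and TAATTA, the palindrome read by many homeodomains, in 13.9% against 7.57% (exact adjusted p = 3.1e-75). ATAATTAAT, a Brn3-type site, was rare at 1.35% against 0.534% (exact adjusted p = 3.8e-14). The RUNX site, searched as ACCACA with A or G allowed in the first and the fourth place, was in 36.7% against 30.2% (exact adjusted p = 1.7e-37). The E-box CANNTG, read by bHLH factors, and GGGCGG, a GC box of promoters, gave ratios of peak-only to interval-only pairs of 1.24 (exact adjusted p = 8.7e-17) and 2.24 (exact adjusted p = 7.8e-44). Peaks were slightly richer in G and C than their paired intervals, with medians of 46.7% and 44.2%.

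All 6-base words were then counted on the odd-numbered chromosomes and their shares taken on the others, over 7607 peaks. The leading word was CCATTA, the reverse strand of TAATGG, in 34.9% of peaks and 9.79% of paired intervals. CATTAG, which overlaps it, followed at 29.99% against 9.49%, and CACTTA, the reverse strand of TAAGTG, at 30.3% against 10.4%. TAAGTG differs from TAAT-type sites, and the Isl1 peak nearest to the *Isl1* gene itself holds it, at chr13:116313301-116313356 (minus strand, intergenic), in capitals here:
Isl1, TAAGTG: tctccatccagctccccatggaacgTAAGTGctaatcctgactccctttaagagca
Simple A-runs were fewer in peaks, AAAAAA being in 12.2% of them and 24.7% of intervals. Over all peaks TAATGG was in 34.5% and TAAGTG in 30.1%. Site types of other factors were looked up as well, in peaks and in paired intervals. ATTGAT, of Onecut factors, was in 24.9% and 9.90%, CAGCTG, an E-box, in 21.5% and 10.55%, and CCCNNGGG, of Ebf factors, in 16.6% and 4.84%. All of these were picked after the counts were seen, so no test is given for them.

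The sites were denser at the middle of the peaks than in the DNA to either side. CTAATGG was 6.37 times as dense within 20 bp of the midpoint as at 160 to 200 bp from it. The same ratio was 4.21 for TAAGTG, 3.25 for CCCNNGGG and 2.70 for ATTGAT, and lower for TAATTA (1.56) and the RUNX site (1.29). Sites cut by the edge at 200 bp were not counted, so these ratios run slightly high. The outer class lies outside most peaks, whose upper quartile of width was 294 bp.

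**Figure D1:**
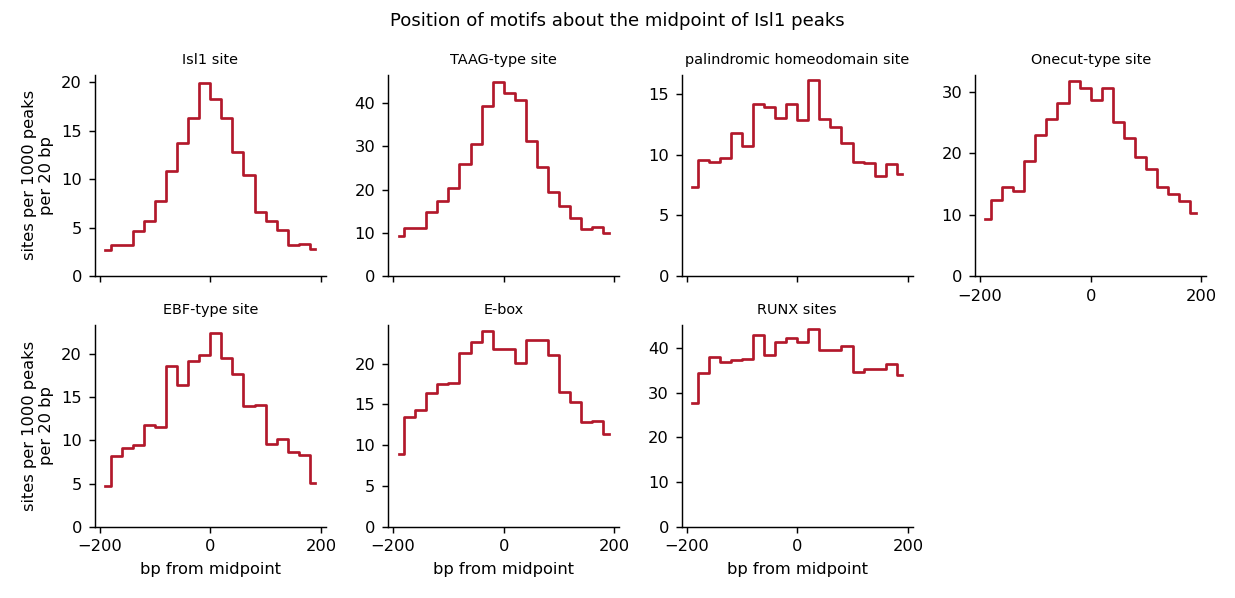
Sites per 1000 peaks in each 20 bp step against distance from the midpoint of Isl1 peaks in bp, with 1 panel a motif and each y axis starting at 0 with its own scale. The Isl1 site (CTAATGG) and the TAAG-type site (TAAGTG) crowd at the centre, where they are 6.37 and 4.21 times as dense as at 160 to 200 bp, while the RUNX sites are nearly level (1.29). The ratios run slightly high, because sites cut by the outer edge were not counted.

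The authors marked each peak for V$LHXF, the motif family of LIM-homeodomain factors in the Genomatix library, and 11402 peaks (71.6%, Wilson 95% interval 70.9 to 72.3) carried it. The mark and the searched words overlapped without being the same. TAAT was in 97.9% of marked and 55.4% of unmarked peaks, and TAATTA in 0.510% of unmarked peaks. CTAATGG was in 16.8% of marked and 6.71% of unmarked peaks. TAATGG or TAAGTG lay in 61.7% of marked peaks and in 1536 of the 4514 unmarked ones (34.0%), so a share of the peaks without the mark held words that lead in the whole list. Taken singly, TAATGG was in 13.1% of unmarked peaks, near the 9.46% of the paired intervals of all peaks. For TAAGTG these shares were 24.3% and 10.65%.

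Isl1 peaks lay mostly far from genes' start sites. The distance from midpoint to nearest protein-coding TSS had a median of 51.5 kb (quartiles 14.9 and 147.6), and 46.2% of peaks were upstream of that TSS. Within 1 kb there were 947 peaks (5.95%), while 4711 (29.6%) lay at 10 to 50 kb, 4574 (28.7%) at 100 to 500 kb and 823 (5.17%) beyond. The median distance was close to that of Brn3a peaks (50.3 kb) and larger than those of ATAC (13.8 kb), Runx3 (6.49 kb) and H3K27Ac peaks (4.70 kb).

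**Figure D2:**
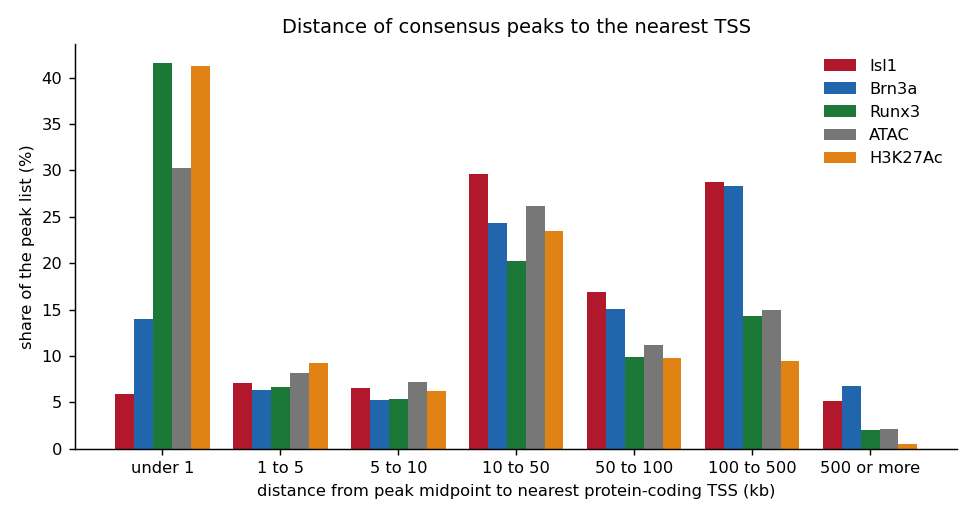
Share of each peak list (percent, bars from 0) by distance from peak midpoint to the nearest protein-coding TSS in kb, outside the transgene span. Isl1 has the lowest bar under 1 kb (5.95%, against 14.0% for Brn3a and 41.6% for Runx3), and most of its peaks lie beyond 10 kb.

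By place, 7628 peaks (47.9%) were in introns, 6273 (39.4%) were intergenic, 430 (2.70%) were in exons and 1585 (9.96%, 9.503 to 10.4) were in promoters, taken as 1 kb on either side of any annotated TSS. The promoter share was lower than in each of the other factors' lists and in open chromatin by Fisher's exact test (two-sided, 9 tests adjusted together). Against Brn3a (17.7%) the odds ratio was 0.515 (95% interval 0.486 to 0.546, exact adjusted p = 1.9e-116). Against Runx3 (46.2%) it was 0.129 (0.121 to 0.137) and against ATAC (36.4%) 0.193 (0.183 to 0.204), both with p too small to be represented. When promoters were limited to the TSSs of protein-coding genes, with all transcripts of those genes counted, the Isl1 share was 7.35%.

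Promoter peaks carried the V$LHXF mark less often: 901 of 1585 (56.9%) against 10501 of 14331 distal peaks (73.3%), an odds ratio of 0.480 (0.432 to 0.534, exact adjusted p = 5.4e-40). The share was higher away from the TSS, going from 50.5% within 1 kb to 67.7% at 1 to 5 kb, 72.2% at 50 to 100 kb and 81.2% beyond 500 kb. Introns (72.8%) and intergenic DNA (74.6%) were close to each other, with exons at 62.1%. Promoter peaks had a higher median GC content (51.5% against 46.3%). In the central 200 bp they held GGGCGG in 23.7% of cases against 3.22% for distal peaks, and CTAATGG in 8.14%.

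The mark also followed peak width, which ranged from 72 to 1452 bp with a median of 217 bp. By quartile of width it was carried by 48.2%, 69.0%, 79.7% and 90.1% of peaks, from the narrowest to the widest. Wider peaks hold more letters in which a motif can be found, and the part of that in the rise was not tested. Overlap with other lists rose with width as well, from 39.2% to 85.3% for Brn3a, 33.1% to 64.5% for ATAC and 14.1% to 46.8% for Runx3, whereas the promoter share fell from 13.1% to 6.46%. Comparisons by V$LHXF mark are therefore given below within width quartiles too, a choice made after the data were seen. The lower share of the mark in promoters held in each quartile, with odds ratios of 0.518, 0.577, 0.501 and 0.625.

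Of the Isl1 peaks, 7532 (47.3%) overlapped open chromatin and 3462 (21.8%) overlapped H3K27Ac, the acetyl mark of active promoters and enhancers. The lists were widened as the study's methods describe, and 1 shared base counted as overlap. Both features were present at 17.9% of peaks and ATAC alone at 29.5%, while 7765 peaks (48.8%) met neither list. Promoter peaks differed from the rest: 67.4% met ATAC and 56.1% met H3K27Ac, and 27.6% met neither. H3K27Ac was at 75.7% of peaks within 1 kb of a protein-coding TSS and at 4.01% beyond 500 kb, whereas ATAC ran from 79.5% to 50.3% over the same classes, with a low of 37.5% at 1 to 5 kb.

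Brn3a shared the larger part of the Isl1 regions. Its peaks overlapped 10027 of them (63.0%) and Runx3 peaks 4301 (27.0%). Both factors were present at 3698 (23.2%), Brn3a without Runx3 at 6329 (39.8%), Runx3 without Brn3a at 603 (3.79%) and neither at 5286 (33.2%). Read from the other side, Isl1 peaks met 30.5% of all Brn3a peaks and 31.9% of all Runx3 peaks. For Runx3 this was 48.9% of distal but 12.2% of promoter peaks, and for Brn3a 33.4% and 16.7%. The Brn3a overlap did not pass the test between promoter (60.9%) and distal Isl1 peaks (63.2%), with an odds ratio of 0.905 (0.814 to 1.01, exact adjusted p = 0.0663). That ratio turned to 1.11 when taken within width quartiles, which went opposite ways: 1.37 and 1.24 in the narrower, 0.920 and 0.593 in the wider. In the narrowest quartile 45.9% of promoter and 38.2% of distal peaks met Brn3a, and in the widest 78.1% and 85.8%.

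Distal Isl1 peaks fell into partner classes that differed in chromatin. The 3093 shared with both Brn3a and Runx3 were the widest (median 303 bp), and 21.1% of them lay outside ATAC and H3K27Ac. The 5969 shared with Brn3a only had a median width of 231 bp and 48.1% outside both, and the 444 shared with Runx3 only had 211 bp and 48.4%. Of the 4825 with neither partner, 74.4% were outside both, with the narrowest width (173 bp) and the lowest V$LHXF share (59.2%, against 81.8% and 81.0% in the classes with Brn3a). Detection limits of the lists are not known, so a narrow peak outside ATAC cannot be told apart from one in chromatin that was open below the ATAC call.

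The partner classes also differed in which words they held in the central 200 bp, less so for the Isl1 site than for others. CTAATGG was in 12.2% of distal peaks with neither partner, 12.6% with Brn3a only, 11.3% with Runx3 only and 14.0% with both. It was in 4.13% of the 17979 distal Brn3a peaks without Isl1 and 2.18% of the 28276 distal ATAC peaks that met none of the 3 factors. TAAGTG ran from 25.5% to 28.9% over the Isl1 classes and was in 12.4% and 6.88% of those other sets. The RUNX site was in 63.7% of peaks with Runx3 only and 51.3% with both, against 24.2% with Brn3a only and 29.9% with neither. It was in 35.55% of those ATAC peaks. ATTGAT was in 28.0% with Brn3a only and 16.2% with neither. It was as frequent in distal Brn3a peaks without Isl1 (25.5%), and lower in those ATAC peaks (6.37%). CAGCTG was in 19.1% of all distal Isl1 peaks, 13.7% of those Brn3a peaks and 19.9% of those ATAC peaks.

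Distal peaks with the V$LHXF mark overlapped Brn3a more often than those without it, 70.1% against 44.3% (odds ratio 2.95, 2.73 to 3.18, exact adjusted p = 5.2e-172). This held in each width quartile, with odds ratios of 2.05, 1.69, 1.79 and 2.23. H3K27Ac was at 16.9% of marked and 20.7% of unmarked distal peaks (0.780, 0.710 to 0.856, exact adjusted p = 2.7e-07). The ratio was below 1 in each quartile, at 0.830, 0.578, 0.487 and 0.511, but in the narrowest its interval (0.680 to 1.01) took in 1. ATAC was at 47.6% against 38.3% (1.46, 1.36 to 1.58, exact adjusted p = 5.5e-23) and Runx3 at 26.8% against 18.9% (1.57, 1.43 to 1.72, exact adjusted p = 7.3e-23). Neither held within width: the odds ratios stratified by width were 0.992 for ATAC (95% interval 0.914 to 1.08) and 0.901 for Runx3 (0.815 to 0.997), both on the other side of 1.

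**Figure D3:**
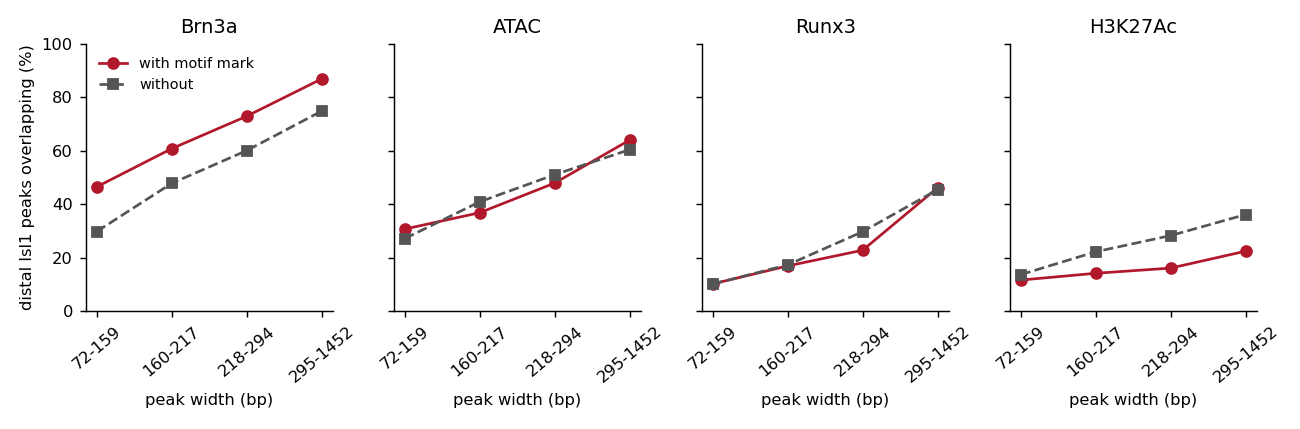
Share of distal Isl1 peaks (percent) that overlap each other list, by quartile of peak width in bp, for peaks with (circles) and without (squares) the V$LHXF mark. For Brn3a the marked peaks lie above the unmarked in each quartile (46.5% against 29.8% in the narrowest, 86.9% against 74.9% in the widest), for H3K27Ac below, and for ATAC and Runx3 the lines cross or meet.

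Of 21938 protein-coding genes, 6066 (27.7%) were nearest to at least 1 Isl1 peak, 884 (4.03%) to at least 5, and 903 (4.12%) had a peak within 1 kb of a TSS of their own. These shares are the background for every gene group below. Peaks were unevenly spread: 3055 genes had 1 peak, 1139 had 2 and 21 had 20 or more, and the 884 genes with 5 or more held 7234 peaks, 45.5% of all. Of the 6066, 5163 had no peak within 1 kb of a TSS of their own, 534 had only such peaks and 369 had both kinds. A gene in a wide empty region collects more peaks under this rule. Its territory, the DNA nearer to its TSS than to any other, had a median of 46.2 kb over all genes, 137.1 kb for those with a peak and 469.1 kb for those with 5 or more. The number per Mb of territory, 5.84 over the genome, is therefore given beside the counts of gene groups.

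The gene with the most Isl1 peaks was *Auts2*, a neurodevelopmental gene at chr5:131437333-132543344, with 50. Of these, 41 carried V$LHXF, 44 met Brn3a and 24 met ATAC, at 25.8 per Mb. *Zfp608*, a zinc finger gene, followed with 40 (33 with Brn3a, 32.4 per Mb), and *Tle3*, a Groucho-type corepressor at chr9:61372366-61418497, had 36. The *Tle3* peaks were denser, at 64.1 per Mb, and 1 of them lay 0.079 kb from the TSS. *Tenm4*, a teneurin adhesion gene, had 30. These counts rest on the rule of the nearest TSS: *Auts2* kept 26 when only the 5′ end of each gene counted, where *Zfp608* led with 42, 24 with peaks in ATAC and 22 within 100 kb.

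*Pou4f1* stood out among the 20 genes with most peaks for its small territory. With 22 peaks in 339.1 kb it reached 64.9 per Mb, the highest of the 20, while the other 19 ranged down to 8.22 per Mb (*Lsamp*). Between them came *Ntm* and *Tenm3* with 26, *Tmem132c* with 24, *Clint1*, *Efna5*, *Lrmda*, *Lsamp*, *Rbfox1*, *Robo1* and *Zfhx3* with 23, *Adgrl2* with 22, and *Dab1*, *Med13l* and *Nrxn3* with 21. *Robo1* encodes a guidance receptor, *Efna5* an ephrin, and *Ntm* and *Lsamp* adhesion proteins of neurons. Only *Zfp608* and *Tle3* among the 20 had a peak within 1 kb of their own TSS. *Clint1* had no peak within 100 kb of its TSS or in its gene body, its nearest lying 111.9 kb away.

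**Figure D4:**
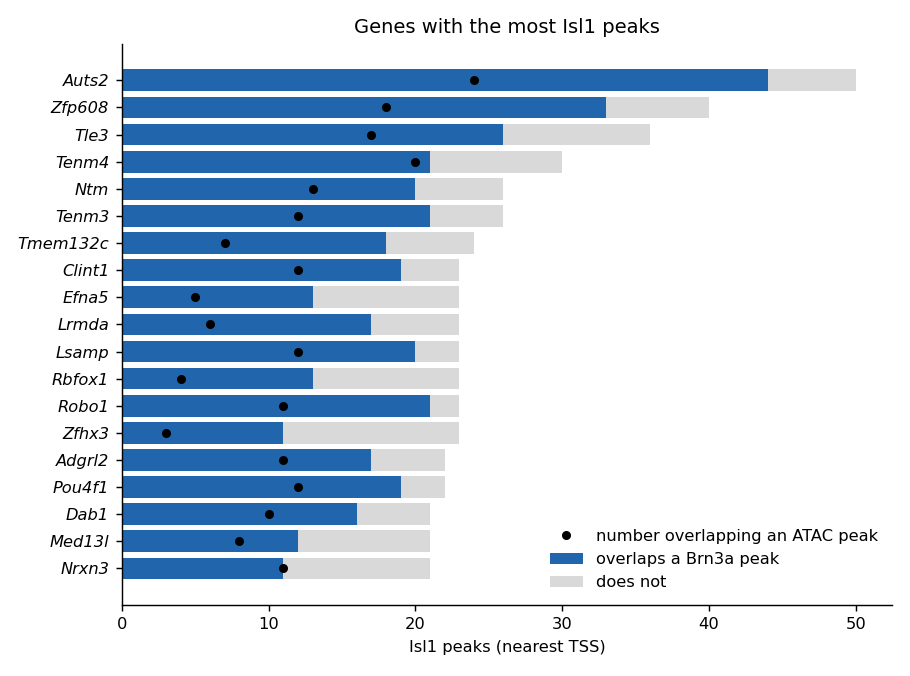
Number of Isl1 peaks of 19 of the 20 genes with most peaks (bars from 0), with those that overlap a Brn3a peak in blue, the rest in grey, and a black point at the number that overlap an ATAC peak. *Auts2* leads with 50 peaks, 44 with Brn3a and 24 with ATAC, and *Zfhx3* has the fewest with ATAC, 3 of 23.

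Ranked by density among genes with 5 or more peaks, other genes came first. *Ccdc33* had 5 peaks in 33.15 kb (150.8 per Mb), all within ATAC and H3K27Ac and only 1 with Brn3a. Sites in the peak at chr9:58105927-58106243 lie within the annotated bodies of both *Ccdc33* and *Stra6*. *Cntn2*, the axonal adhesion protein TAG-1, reached 114.6. All 8 *Cntn2* peaks met Brn3a, 7 met ATAC and 6 met H3K27Ac. Others of the 10 were *Ankrd27* (109.5), *Crmp1* (106.5), *Gm17662* (90.9), *Ghrhr* (86.5), *Adgra1* (85.4), *Hdhd2* (85.1) and *Parp16* (83.5). *Crmp1*, a mediator of semaphorin signals, had 7 peaks, 5 of them with Runx3. They lay 12.66 to 32.05 kb upstream of *Crmp1*, within other annotated genes, and a site in the peak at chr5:37221632-37221975 lies within *Gm1043*. All 9 peaks of *Adgra1* carried V$LHXF.

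At promoters, *Elavl4* and *Esrrg* had the most peaks within 1 kb of their own TSSs, with 3 each. *Elavl4* encodes the neuronal RNA-binding protein HuD. Its 3 promoter peaks, at chr4:110287480-110287626, chr4:110287643-110287859 and chr4:110351332-110351493, all carried V$LHXF and met both ATAC and H3K27Ac. *Esrrg*, an orphan nuclear receptor gene used by proprioceptors and other neurons, had 12 peaks in all, and of its 3 promoter peaks that at chr1:187997707-187997969 met every other list. The next 8 by symbol among genes with 2 such peaks were *1190007I07Rik*, *C130050O18Rik*, *Cep120*, *Chd9*, *Creb5*, *Ctbp2*, *Ctif* and *Eif4g2*.

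Isl1 was found at the gene that encodes it, though not at its promoter. *Isl1* (chr13:116298281-116309689) had 12 peaks, of which 9 carried V$LHXF, 11 met Brn3a, 9 met ATAC and 1 met H3K27Ac. The nearest, chr13:116313276-116313452, lay 3.68 kb before the TSS. The others were 179.9 to 558.1 kb away, in groups: 4 peaks stood 179.9 to 188.1 kb upstream and 3 at 316.7 to 324.3 kb upstream. The only peak with H3K27Ac, chr13:116495597-116495941, also met ATAC, Brn3a and Runx3, and it holds the CTAATTG window shown above.

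*Pou4f1*, the gene of Brn3a (chr14:104461676-104467999), had 22 peaks on both sides of the gene and none within 1 kb of its TSS. The nearest was at 1.95 kb upstream (chr14:104469730-104470173), and 19 lay 10.83 to 277.1 kb downstream. Of the 22, 19 carried V$LHXF, 19 met Brn3a, 12 met ATAC and 3 met H3K27Ac. The peak that holds the CTAATGG window above, chr14:104427771-104427926, has no V$LHXF mark. Its relatives *Pou4f3* and *Pou4f2* had 6 and 1 peaks, which brought the 3 genes to 29 peaks and 48.1 per Mb.

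The LIM-homeodomain genes had at least 1 peak in 9 of 12 cases (10.7 per Mb), with a median of 1.5 peaks against 0 over all genes. After *Isl1* came *Lmx1b* with 7 peaks and *Lmx1a* with 3. *Isl2*, the close paralogue of Isl1, had a single peak at chr9:55540913-55541195, 0.094 kb from its TSS, which met all 4 other lists. *Lhx2*, *Lhx6* and *Lhx9* had none. Among cofactors of LIM proteins, 7 of 10 had a peak (7.66 per Mb): *Lmo1* had 7, *Lmo4* 4 and *Ldb2* 3, while *Ldb1* had none.

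Genes for transcription factors of sensory neurons had peaks in 28 of 34 cases (82.4%), and 16 of the 34 had 5 or more. Together they held 189 peaks, 15.0 per Mb, with a median of 4 per gene. *Zfhx3* had 23, *Sox11* 19, *Klf7* and *Meis1* 15 each and *Etv1*, a factor proprioceptors need, 11. *Klf7*, a Krüppel-like factor of sensory neurons, had 39.3 per Mb and 1 promoter peak. *Hmx1* had 6 peaks at 48.5 per Mb. *Bhlhe22*, *Mafg*, *Nhlh1*, *Prdm12*, *Tfap2a* and *Tlx2* had none.

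The *Etv1* promoters held 2 peaks, at 0.006 and 0.035 kb from a TSS, which met none of the other lists although that at chr12:38783300-38783571 carried V$LHXF. Its other 9 peaks lay 36.69 to 440.8 kb away, and 5 of the 11 met Brn3a. Of the genes of the sequence of neuronal birth (temporal factors), 8 of 13 had a peak (11.9 per Mb), led by *Zfhx3*, *Nfia* (14, at 40.2 per Mb) and *Onecut1* (10). *Nfic*, *Nfix*, *Onecut2* and *Onecut3* had none.

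Receptors for neurotrophins, which keep sensory neurons alive and set their subtype, differed in their counts. Of the 9 genes of receptors and ligands 4 had a peak, with a median of 0 and 11.3 per Mb. *Ntrk3*, the gene of TrkC itself (chr7:78175959-78738012), had 18 peaks, of which 17 carried V$LHXF and 13 met Brn3a. The closest lay 3.73 and 4.998 kb from a TSS inside the gene, and 4 met H3K27Ac, 2 of them in introns together with ATAC, Brn3a and Runx3 (chr7:78603945-78604371 and chr7:78628304-78628787). *Ntrk2* (TrkB) had 7 peaks and *Ngfr*, the p75 receptor, 5 in a small territory (65.6 per Mb). *Bdnf*, *Ntf5* and *Sort1* had none, and *Ntf3*, the TrkC ligand, had 2.

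Of the GDNF family, 6 of 9 genes had a peak (11.49 per Mb). The receptor genes *Gfra1*, *Gfra2* and *Ret* had 9, 5 and 4, and the ligand gene *Gdnf* 3. The 4 *Ret* peaks lay 6.57 to 104.7 kb upstream, and 1 of them met Brn3a. Among Runx genes and their partners (11.1 per Mb), *Runx1t1* had 14 peaks, 13 with Brn3a, and *Runx1* and *Runx2* 5 each. All 5 *Runx1* peaks met Brn3a, against 1 of the 5 at *Runx2*. *Runx3* had none outside the transgene span.

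Of genes that the study names as tied to Isl1 in DRG neurons, 5 were listed and all had a peak, 14 in sum. *Piezo2*, also named there, is counted with the channels. This list was chosen by the study for that tie, and its density of 4.49 per Mb was below the genome value. *Cckar*, the cholecystokinin A receptor gene, had a promoter peak (chr5:53707862-53708028) in open chromatin without Brn3a. *Scn10a*, which encodes the sodium channel of nociceptors, had a promoter peak (chr9:119719119-119719371) with Brn3a and without ATAC. *Nova1*, a splicing regulator, had 7 peaks, the nearest at 1.122 kb. *Cbln2* had 2, the nearest at 35.5 kb, and *Gal*, the neuropeptide galanin, 1 at 8.06 kb. None of the 14 met H3K27Ac.

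Of 20 sensory channel genes, 15 had a peak (10.9 per Mb) and the median was 1: *Asic2* had 8, *Scn9a* 7 (all with Brn3a) and *Trpm3* 6. *Piezo2*, the touch and stretch channel, had 4, and *Piezo1*, *Scn8a* and *Trpv2* had none. Of 12 neuropeptide genes, 8 had a peak (7.75 per Mb), led by *Cartpt* with 10 and *Adcyap1* with 7. Markers of proprioceptors had one in 9 of 13 cases and those of nociceptors and mechanoceptors in 14 of 17, with medians of 2 in both and densities of 9.38 and 12.2 per Mb. *Pvalb*, the parvalbumin gene of mature proprioceptors, had 1 and *Spp1* none.

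Genes used by most neurons had a peak in 13 of 20 cases (12.6 per Mb). *Nefm*, a neurofilament gene, had 14, all with Brn3a, at 62.2 per Mb, and *Rbfox3* (NeuN) had 14. All 6 *Gap43* peaks carried V$LHXF and met Brn3a. *Tubb3*, *Prph*, *Nefh*, *Uchl1*, *Ina* and *Elavl3* had none. Of 20 genes used by every cell, 4 had a peak (27.7% of all genes did), at 6.60 per Mb against 5.84 over the genome, in territories with a median of 24.1 kb.

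Axon guidance and adhesion genes held the largest sums among the hand-made lists. Of 33 guidance genes 31 had a peak, 245 in all with a median of 6, and of 31 adhesion genes 30 had one, 308 in all with a median of 8. Their territories are wide, with medians of 619.0 and 1347 kb, and per Mb they reached 8.76 and 7.06. *Robo1* and *Robo2*, receptors for Slit, had 23 and 17 peaks, of which 21 and 16 met Brn3a and none met H3K27Ac. *Unc5c* (36.1 per Mb) and *Plxna4* (28.5 per Mb) were the densest of those with 10 or more. The 12 type II cadherin genes all had a peak but at 2.49 per Mb, under the genome value, and 16 of 20 neuronal RNA-binding genes had one at 7.91 per Mb.

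Whole families defined by name were counted as well. All 4 Ebf genes, factors of neuronal differentiation, had a peak: *Ebf1* had 19, *Ebf3* 13, *Ebf2* 7 and *Ebf4* 1, together 30.4 per Mb, and none lay within 1 kb of a TSS. All 6 Irx genes had one, from *Irx3* with 16 to *Irx4* with 3, at 18.0 per Mb. Of 39 Hox genes 10 had a peak, at 20.1 per Mb of their compact clusters, and *Hoxb7* had 2 promoter peaks. Plexin genes reached 17.0 per Mb. At the other end, olfactory receptors (30 of 1134 genes, 1.11 per Mb) and vomeronasal receptors (8 of 329, 0.282 per Mb) had the fewest per Mb of the lists and families counted. Clustered protocadherins had a peak in 3 of 57 cases, at 3.296 per Mb of small territories (median 7.45 kb).

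**Figure D5:**
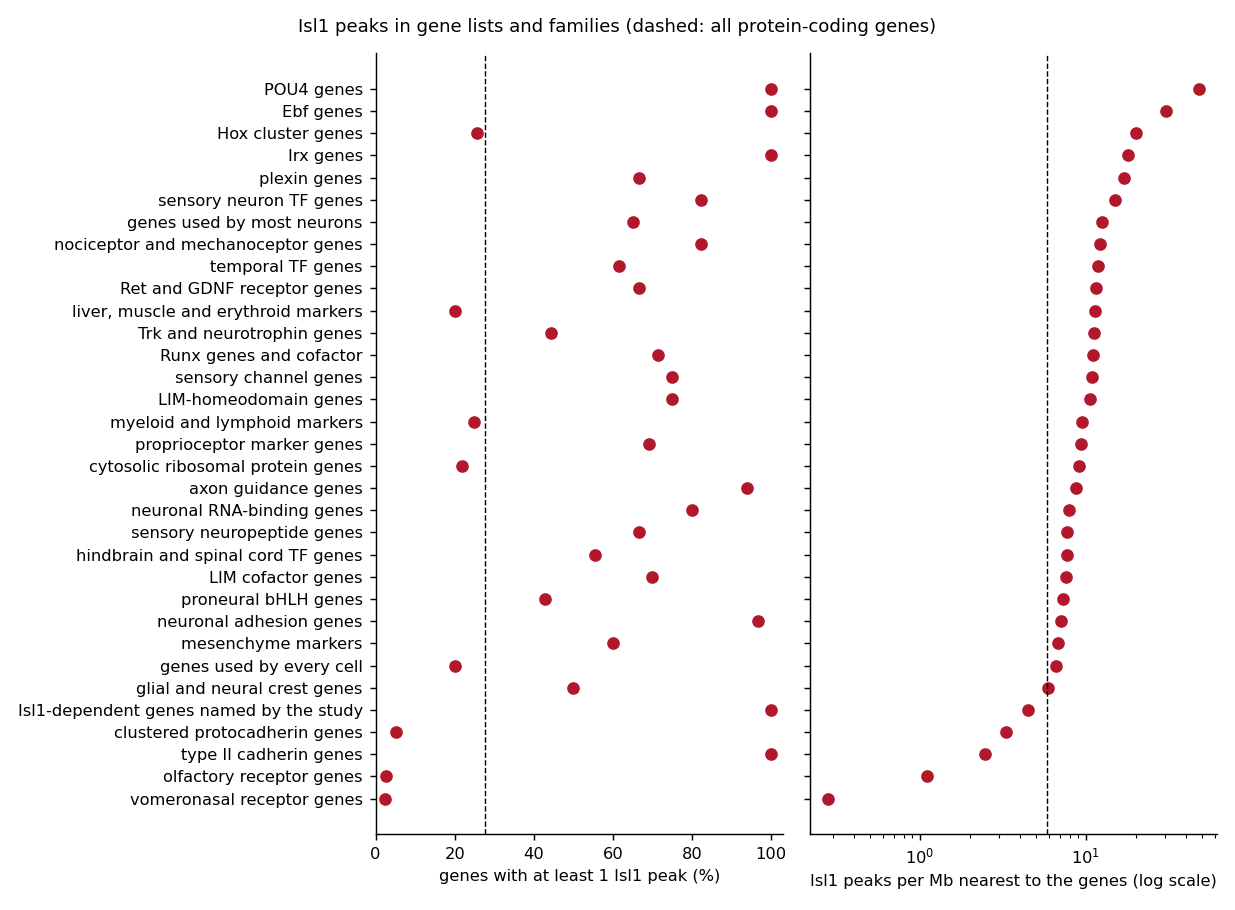
Share of genes with at least 1 Isl1 peak (left, percent) and Isl1 peaks per Mb of territory (right, log scale) for gene lists and families, with dashed lines at the values of all protein-coding genes (27.7% and 5.84 per Mb). POU4 genes (48.1) and Ebf genes (30.4) lie far to the right of the line, type II cadherin (2.49) and olfactory receptor genes (1.11) to its left.

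Marker genes of other cells were not free of Isl1 peaks. Of 12 glial and neural crest genes 6 had one (5.97 per Mb), with 6 at *Sox9* and 5 at *Ednrb* and none at *Sox10*, *Fabp7*, *Erbb3* or *S100b*. Mesenchyme markers had one in 6 of 10 cases (6.84 per Mb), with 6 at *Dcn* and none at *Col1a1* or *Col3a1*. Myeloid and lymphoid markers had one in 5 of 20 (6 of the 12 peaks at *Ptprc*), and markers of liver, muscle and erythroid cells in 3 of 15. Their territories are small, and per Mb these sets reached 9.48 and 11.3, above the genome value of 5.84. Of the transcription factor genes of hindbrain and spinal cord, 20 of 36 had one (7.74 per Mb), led by *Foxp1* with 11, and of the proneural bHLH genes 9 of 21 (7.30 per Mb), with none at *Neurog1* or *Neurog2*. Peaks hold no expression, so which cells carried these peaks was not tested.

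With peaks joined when 10 kb or less apart, 10707 stood alone and 5208 (32.7%) fell in runs: 2206 runs had 2 to 4 peaks and 42 runs had 5 or more, holding 235 peaks. A 25.1 kb run of 9 at *Tle3* (chr9:61361355-61386452) had 8 V$LHXF marks, 7 peaks with Brn3a and 7 with ATAC. A run of 9 before *Crmp1*, with peaks nearest to it or to *Gm1043* (chr5:37196785-37229420), had 8 with ATAC but 3 with V$LHXF. A run of 9 nearest to *Tmco5* (chr2:116545452-116561328) lay in intergenic DNA 317.5 to 332.9 kb upstream of its TSS. It met ATAC and H3K27Ac at none of its peaks and Brn3a at 1. A median of 31.4% of its bases were repeat-masked, against 10.9% at *Tle3*. Nearest to *Myo3a*, 8 peaks within 3.11 kb (chr2:22587288-22590398) all met ATAC and Runx3 and none met H3K27Ac. They lay 29.14 to 31.72 kb downstream of its TSS, in promoters of transcripts that are not protein-coding. These runs differ in what accompanies them. Whether mapping in repeated DNA enters the *Tmco5* run, or mismapped reads the *Myo3a* run, was not tested.

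Peaks per Mb ran from 5.24 to 7.80 over the autosomes. Chromosome X had 224 peaks (1.31 per Mb) and chromosome Y 2.

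Within the span copied by the BAC, Isl1 peaks were unlike those elsewhere. The 119 peaks covered 46.5 kb, 21.1% of the span, at 540.9 per Mb, while the equal stretches of 220 kb on either side held 1 and 0. V$LHXF was carried by 49 (41.2%, Wilson 95% interval 32.7 to 50.2), H3K27Ac was met by 101, Runx3 by 49, ATAC by 29 and Brn3a by 17. In their central 200 bp CTAATGG was in 1.68%, TAAGTG in 4.20% and TAAT in 42.0%. By nearest TSS, 85 would be given to *Runx3* and 34 to *Syf2*, which would put *Runx3* ahead of *Auts2*. The other lists were dense there too, with 97 H3K27Ac, 61 Runx3, 39 ATAC and 19 Brn3a peaks. Binding to the *Runx3* locus and reads from extra copies of it cannot be told apart in these lists.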

How the data were processed

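Per the study's methods, the authors trimmed reads with Cutadapt, aligned them to mm10 with Bowtie, kept short fragments and all duplicates, and called peaks with MACS2 against non-immune serum. The labels name the same serum sample as control for all 3 Isl1 samples. Regions in at least 2 of 3 samples were kept, those mostly of repeats or on the blacklist were removed, and V$LHXF was marked with Genomatix. The deposited lists therefore hold coordinates and motif marks (unit other), with no score or count, and the depth behind them is not known here.

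Peak starts were taken to be 1-based, because RUNX motif counts recomputed from the genome then equalled the deposited ones in 13443 of 13443 Runx3 peaks, against 99.8% with 0-based starts. Genes, TSSs and places came from GENCODE M21 (GRCm38). CUT&RUN peaks under 300 bp and ATAC peaks under 500 bp were widened about their midpoints before overlap, which needed 1 shared base. Fisher's exact tests used distal or all peaks outside the transgene span and were adjusted together by Benjamini-Hochberg. Shares have Wilson 95% intervals. Named genes were the 20 with most peaks, the 10 densest among those with at least 5, the 10 with most peaks at their own TSS, genes the study names, and members of 25 lists (414 of 416 symbols matched) and 47 families. Some genes that meet these rules are not reported here. The gene lists and tests were chosen with earlier results of these data known. Code was tested on simulated data. Python 3.11.15, numpy 2.4.6, pandas 2.3.3, scipy 1.17.1, pysam 0.24.0 and matplotlib 3.10.9 were used.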

Additional observations from a re-analysis of the deposited data

How the results depend on the processing

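No paired analysis was possible because the lists hold no per-sample values, and for the same reason leaving out each replicate could not be run. Over the alternatives, 88 of the values that answer a comparison stayed the same: tested values in direction and call, shares within their interval, and gene counts within 1.5 times. Another 19 did not and are given here. The promoter share of Isl1 peaks was 9.96% and became 7.51% with promoters of 1 kb upstream to 100 bp downstream. It was 7.35% with the TSSs of all transcripts of protein-coding genes only. Within quartiles of width, a setting chosen after seeing the data, the odds ratios of V$LHXF mark with ATAC and with Runx3 turned to 0.992 and 0.901, while those with Brn3a (1.88), with H3K27Ac (0.597) and with promoters (0.540) kept their side of 1. The odds ratio of Brn3a overlap, promoter against distal, was 0.905 and did not pass; it was 0.896 with peaks as deposited (exact p = 0.0428) and 0.897 with overlap of 50% of the shorter interval (exact p = 0.0459), both past the threshold, and 1.10 with the narrower promoter and 1.11 within width quartiles, in the other direction. Overlap with ATAC moved from 47.3% to 46.0% with peaks as deposited and 46.1% at 50% overlap, and that with H3K27Ac from 21.8% to 20.3% at 50% overlap.

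How peaks are given to genes set the gene counts. Genes with a peak numbered 6066, and 3377 when a peak counted only inside a gene body and 3933 with peaks in ATAC only; 8381 with GREAT domains and 4801 with V$LHXF peaks only were within 1.5 times. Genes with at least 5 numbered 884, and 1905 with regulatory domains of the GREAT kind, 392 by gene body, 589 with V$LHXF peaks only, 268 with ATAC peaks only and 375 within 100 kb. Genes with a peak at their own TSS numbered 903, and 463 with V$LHXF peaks only (697 by the 5′ end). For the counts of single leading genes, 62 of the values under another setting moved and 78 did not. Of the 20 genes with most peaks, 18 stayed among the 20 leading genes with V$LHXF peaks only, 15 by the gene's 5′ end, 12 with ATAC peaks only, 9 within 100 kb and 8 by gene body or GREAT domains. *Auts2* was first with all peaks, with V$LHXF peaks, with ATAC peaks and within 100 kb, *Zfp608* by 5′ end and GREAT domains, and *Fgfr2* by gene body (51 peaks). The annotated body of *Fgfr2* also covers peaks that lie within *Ctbp2*. A peak inside several genes was counted only for the first of them, so the *Fgfr2* count takes in peaks of other genes.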
